A study of Homo sapiens with 8 samples.

Results

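GATA1 and GATA2 encode zinc finger transcription factors that bind the sequence GATA, and the chromatin around both genes was examined here in HUDEP-2 cells, an established human erythroid progenitor line immortalized from cord blood. Chromatin accessibility was measured by ATAC-seq, in which the transposase Tn5 inserts adapters into open DNA, so that fragments pile up over accessible sites. The sites were chosen by their called peaks, and a peak was taken when its summit lay inside the gene body of GATA1 or GATA2 or within 120 kb of one of their annotated start sites. This rule gave 97 of the 126449 peaks in the 4 lists. Peaks sharing at least 1 bp were merged into regions, which gave 28 of 43569 regions, 9 at the GATA1 locus and 19 at the GATA2 locus. The rule used peak position and presence, so the number of peaks per library is given as a description.

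The labels describe 8 samples in 4 groups of 2, of which the 4 carrying a control guide RNA (sgControl) were analysed and the 4 carrying a guide against EGR1 (sgEGR1) were not analysed here. The guides were delivered by lentivirus, the cells were sorted for GFP, and cultures were expanded with SCF beforehand. All cells then spent 5 h without growth factors and received either stem cell factor (SCF, the ligand of the Kit receptor tyrosine kinase) at 50 ng/ml or the vehicle phosphate-buffered saline (PBS) for 1 h, and 50000 cells went into each library. PBS served as the control in the comparison, which asks whether acute Kit activation changes accessibility at these genes. Every group is the same cell line, and the methods call the samples of a group biological duplicates.

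GATA1 drives erythroid maturation, whereas GATA2 is known for its role in stem and progenitor cells, mast cells and Kit-positive precursors. During erythroid maturation GATA1 is known to replace GATA2 at regulatory sites of the GATA2 gene itself, the exchange called the GATA switch, and the GATA2 gene falls silent. GATA2 is transcribed from alternative first exons, and an intronic enhancer that joins an E-box to a GATA sequence is known to control it in blood progenitors.

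The sequences below carry the contrasts described in the following paragraphs: both promoters, the intronic site of GATA2, the highest-ranked upstream site of each gene and the 1 region that gained and the 1 region that lost rank with SCF. The upstream sites of GATA2 at −2.48 kb and −54.34 kb were added after their values were seen, since they hold paired GATA sequences and both an AP-1 and an EGR sequence, respectively. Each run is 201 bases around the summit, read from GRCh37 on the strand of the gene, except that the window of the GATA2 promoter was moved to the nearest stretch without untranslated exon. Positions are kb from the most upstream annotated start of the gene, negative when upstream. Capitals mark the searched words. These are AGATAA or its variant TGATAA for GATA factors. Those read on the opposite strand appear as their reverse complement. A composite word joins the E-box CANNTG and, after 6 to 9 bases of any kind, the core GATAA. For AP-1 the word was TGANTCA, and for EGR factors it was GCGTGGG. The GATA1 runs are on the plus strand of chromosome X, at chrX:48641387-48641587 (−3.46 kb), chrX:48644655-48644855 (−0.19 kb, promoter) and chrX:48652801-48653001 (+7.95 kb). The GATA2 runs are on the minus strand of chromosome 3, at chr3:128327120-128327320 (−115.18 kb), chr3:128266280-128266480 (−54.34 kb), chr3:128216676-128216876 (−4.73 kb), chr3:128214422-128214622 (−2.48 kb), chr3:128206765-128206965 (+5.40 kb, promoter) and chr3:128202003-128202203 (+9.94 kb, intron).
GATA1 −3.46 kb: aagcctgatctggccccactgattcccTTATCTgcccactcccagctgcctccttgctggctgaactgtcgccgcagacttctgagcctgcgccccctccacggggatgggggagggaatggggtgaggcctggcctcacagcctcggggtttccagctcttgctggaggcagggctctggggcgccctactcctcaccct
GATA1 −0.19 kb: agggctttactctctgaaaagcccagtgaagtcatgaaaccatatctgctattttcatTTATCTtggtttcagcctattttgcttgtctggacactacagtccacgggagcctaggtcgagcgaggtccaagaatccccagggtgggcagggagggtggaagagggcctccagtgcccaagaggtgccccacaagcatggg
GATA1 +7.95 kb: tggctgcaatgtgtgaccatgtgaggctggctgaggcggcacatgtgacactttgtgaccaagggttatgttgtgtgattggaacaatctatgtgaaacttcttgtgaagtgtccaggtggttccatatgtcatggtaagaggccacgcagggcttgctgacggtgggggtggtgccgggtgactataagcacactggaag
GATA2 −115.18 kb: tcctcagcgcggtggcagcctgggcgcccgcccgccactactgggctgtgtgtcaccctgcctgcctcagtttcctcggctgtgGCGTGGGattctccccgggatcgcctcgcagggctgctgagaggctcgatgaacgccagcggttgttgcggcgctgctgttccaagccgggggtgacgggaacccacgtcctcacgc
GATA2 −54.34 kb: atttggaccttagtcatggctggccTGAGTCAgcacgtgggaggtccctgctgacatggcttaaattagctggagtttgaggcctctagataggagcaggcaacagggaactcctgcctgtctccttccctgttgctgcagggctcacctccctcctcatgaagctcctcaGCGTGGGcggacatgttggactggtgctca
GATA2 −4.73 kb: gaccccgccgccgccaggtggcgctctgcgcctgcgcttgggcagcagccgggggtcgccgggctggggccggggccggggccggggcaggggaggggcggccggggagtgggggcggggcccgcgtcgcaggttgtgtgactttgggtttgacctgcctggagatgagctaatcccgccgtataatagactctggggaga
GATA2 −2.48 kb: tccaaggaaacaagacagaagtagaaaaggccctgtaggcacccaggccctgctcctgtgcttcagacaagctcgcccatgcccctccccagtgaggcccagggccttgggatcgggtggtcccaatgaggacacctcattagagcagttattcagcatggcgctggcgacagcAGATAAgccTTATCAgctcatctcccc
GATA2 +5.40 kb: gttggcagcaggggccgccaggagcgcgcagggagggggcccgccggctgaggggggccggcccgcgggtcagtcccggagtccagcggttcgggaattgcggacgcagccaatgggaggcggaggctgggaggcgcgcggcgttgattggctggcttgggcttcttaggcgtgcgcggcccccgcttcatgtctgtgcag
GATA2 +9.94 kb: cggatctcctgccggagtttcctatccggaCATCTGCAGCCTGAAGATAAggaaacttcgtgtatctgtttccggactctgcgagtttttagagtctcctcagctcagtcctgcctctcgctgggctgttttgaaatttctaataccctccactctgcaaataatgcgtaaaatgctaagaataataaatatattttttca

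The lists held 29269 to 33616 peaks per library, all with a q-value of at most 0.0497. Read totals are unknown from peak lists. A whole-number summit pileup, the count over the summit, was recovered for 100% of peaks in each library. These counts are called fragments here, but the sources used do not say whether the caller counted fragments or read ends. With PBS replicate 1 set to 1, the lowest local background was 1.43 for PBS replicate 2 and 0.902 and 0.846 for the SCF libraries, so PBS replicate 2 was the deepest library and its pileups are the least affected by counting error. Pileups are therefore given as counted and also scaled, that is, divided by the library's median over the 22355 regions called in all 4 libraries (medians of 35, 47, 33 and 33 fragments). The second measure is the percentile rank by fold enrichment within a library, where 100 is the highest and fold enrichment is the pileup over the local background, each plus 1. Promoter regions of the erythroid genes KLF1, EPOR, TFRC, SLC4A1, AHSP, KIT and GATA1 were called in all 4 libraries, 7 of the 9 erythroid markers reported. ALAS2, which makes heme in erythroid cells, was called in 1 library, and HBG1, whose sequence is near-identical to HBG2, in none. The 4 markers of other tissues (ALB, MYOD1, NEUROD1 and SOX17) were called in none, while promoters were called in all 4 libraries for 3 of 5 myeloid, 1 of 4 megakaryocytic and 1 of 4 lymphoid markers. Scaled pileups of the marker promoters were also summed, with an uncalled promoter counted as 0, so a sum also depends on whether weak promoters were called. The erythroid sum was 12.8 and 14.2 in PBS and 11.5 and 11.8 in SCF libraries, and the myeloid sum 2.20 and 2.60 in PBS and 3.21 and 3.0 in SCF libraries. The lymphoid sum was 1.17 and 0.915 in PBS and 1.52 and 1.33 in SCF libraries. The megakaryocytic sum overlapped, at 1.0 and 1.26 in PBS and 1.12 and 0.939 in SCF libraries. The part of these differences in the results was not tested.

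All 9 regions at the GATA1 locus were called in all 4 libraries, against 11 of 19 at the GATA2 locus. Among all regions 51.3% were called in all 4. Of the remaining GATA2 regions, 2 were called in 3 libraries, 2 in 2 libraries and 4 in 1 library, the last against 26.5% of all regions. The GATA1 locus had 10 and 9 peaks with PBS and 9 and 9 with SCF. The GATA2 locus had 13 and 14 peaks with PBS and 17 and 16 with SCF, a difference in means of 3.0 peaks. Among peaks with a −log10 q of at least 5 that difference was 1.0, and within 50 kb of a start or in the gene body it was 1.5. The difference thus came mostly from weak peaks. A single region, at +83.37 kb downstream of the GATA2 start (chr3:128128306-128128803), was called in both SCF libraries and no PBS library, with a pileup of 17 fragments in each. That pattern was found for 1.65% of all regions, and the reverse pattern (2.37% of all regions) for no region at either locus.

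The regions of the GATA1 locus had a higher mean rank than those of the GATA2 locus in every library, but the 2 sets differ in kind. Of the 9 GATA1 regions, 5 were promoters of other genes, with mean ranks of 70.3 to 87.3. None of the 11 GATA2 regions averaged here was such a promoter. The GATA1 promoter and the regions at −3.46 and +7.95 kb had mean ranks of 48.4, 19.8 and 47.0. The mean fold enrichment rank over the 9 GATA1 regions was 62.3 and 65.2 in PBS and 67.1 and 67.3 in SCF libraries. Over the 11 GATA2 regions called in all 4 libraries it was 34.2 and 36.4 in PBS and 32.2 and 34.3 in SCF libraries. For GATA1 this was 63.8 ± 2.05 with PBS against 67.2 ± 0.111 with SCF (± SD, n = 2 each; exact permutation test, two-sided, p = 0.333, the smallest that 2 against 2 libraries can give). For GATA2 it was 35.3 ± 1.56 with PBS against 33.3 ± 1.44 with SCF (± SD, n = 2 each, exact permutation test, p = 0.667). The GATA1 mean ranks did not overlap between treatments, and the GATA2 mean ranks did. Behind the GATA1 mean, the largest differences, SCF minus PBS, were 20.5 points at +7.95 kb and 15.7 points at −3.46 kb. The difference was −3.34 points at the GATA1 promoter, −0.07 at +104.08 kb and −5.68 to 4.17 at the 5 promoters of other genes. The GATA1 mean therefore does not show a rise across the locus. By mean scaled pileup neither locus separated, with 1.54 ± 0.0133 and 1.55 ± 0.152 at GATA1 and 0.918 ± 0.00133 and 0.882 ± 0.0584 at GATA2 with PBS and SCF, respectively (± SD, n = 2 each).

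The promoter of GATA1 was open in both treatments. Its region (chrX:48644106-48645140) had its summit 0.19 kb before the start, with pileups of 39 and 69 fragments in PBS and 35 and 41 in SCF libraries. The ranks were 39.4 and 60.8 in PBS and 41.9 and 51.6 in SCF libraries, so that both SCF values lay between the PBS values. The scaled pileup was 1.29 ± 0.250 with PBS against 1.15 ± 0.129 with SCF (± SD, n = 2 each, limma log2 change −0.16, SE 0.21, adjusted p = 0.905). The difference in rank was −14.0 points without PBS replicate 1 and 7.36 points without PBS replicate 2, and the spread between the PBS replicates was larger than the difference between treatments. The summit window holds 1 GATA word on the strand opposite to the gene.

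The single upstream site of GATA1 that is not the promoter of another gene lay at −3.46 kb (chrX:48641167-48641767). It had nearly equal pileups, 27 and 25 fragments in PBS and 26 and 25 in SCF libraries. Its ranks were 19.8 and 4.13 in PBS and 28.4 and 27.0 in SCF libraries, with no overlap and a gap of 7.10 points. The scaled pileups did overlap, at 0.771 and 0.532 in PBS and 0.788 and 0.758 in SCF libraries (limma log2 change 0.27, SE 0.27, adjusted p = 0.860). The difference of means, 15.7 points, was 7.83 points without PBS replicate 2, the deepest library, and 3.72 points when ranks were taken by pileup. Its window also holds 1 GATA word. No summit fell in an intron or exon of GATA1.

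The clearest difference at the GATA1 locus was just past the end of the gene. The region at +7.95 kb (chrX:48652663-48654137) begins 56 bp before the annotated end of GATA1 and has its summit beyond it. It had 20 and 22 fragments in PBS and 27 and 28 in SCF libraries, although the deepest library was a PBS one. Scaled, these were 0.571 and 0.468 in PBS and 0.818 and 0.848 in SCF libraries, 1.60 times as high in SCF on average. The ranks rose from 39.3 and 34.2 to 56.7 and 57.8, a gap of 17.4 points. Rank gains, with both SCF ranks at least 10 points above both PBS ranks, were 2.57% of the 22355 regions called in every library, and this was the only one among the 20 such regions at the loci. The limma log2 change was 0.69 (SE 0.27, unadjusted p = 0.0183, adjusted p = 0.654), so the difference did not pass the test over all regions. In the 9 alternative settings the log2 change was between 0.54 and 0.85. Switching off the trend, the pileup filter and the replicate block leave it unchanged by construction. Since the scaled pileups do not overlap, leaving out 1 library could not turn its sign. The window around its summit held none of the 8 words searched.

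The other 6 regions at the GATA1 locus were promoters or introns of neighboring genes. The promoter of HDAC6, a cytoplasmic deacetylase gene, at +15.37 kb had the highest pileup at either locus, with 125 and 163 fragments in PBS and 132 and 103 in SCF libraries. The promoters of WAS, SUV39H1 and PQBP1 with TIMM17B, and a start of the unnamed gene ENSG00000232828 at −49.05 kb, had mean ranks of 74.2 to 87.3, and an intronic region of PQBP1 at +104.08 kb had 74.5. Of the 9 GATA1 regions, 4 had SCF ranks above both PBS ranks without overlap (16.0% of all regions) and none had the reverse (19.2% of all regions). By scaled pileup the same counts were 2 and 1, against 18.6% and 18.9% of all regions. WAS encodes a regulator of actin in blood cells and SUV39H1 a histone methyltransferase. Both promoters overlapped between treatments by scaled pileup.

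**Figure D1:**
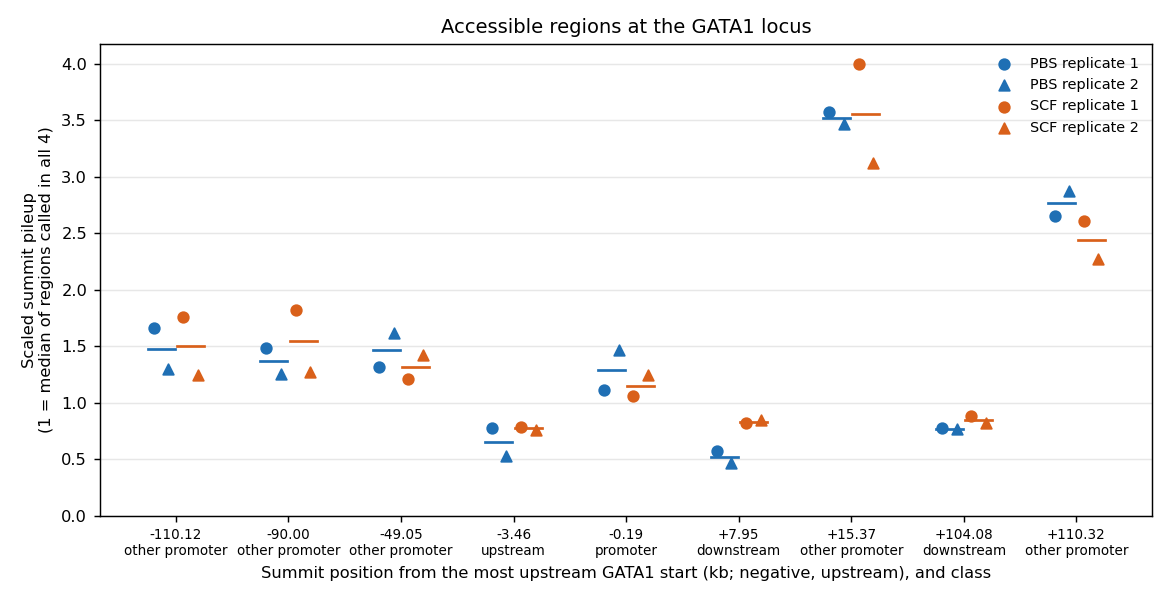
Scaled summit pileup (y axis, 1 is the median of regions called in all 4 libraries) of the 9 regions at the GATA1 locus, ordered by position in kb from the GATA1 start (x axis), with 1 point per library and a bar at the mean of each treatment. The +7.95 kb region separates, with PBS at 0.571 and 0.468 and SCF at 0.818 and 0.848, while the GATA1 promoter at −0.19 kb overlaps.

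At GATA2 the start at +5.40 kb carried the region of highest mean scaled pileup among those called in all 4 libraries (chr3:128206341-128207365), a region over an internal first exon of GATA2. It had 67 and 96 fragments in PBS and 54 and 57 in SCF libraries. Scaled, the promoter was at 1.91 and 2.04 in PBS and 1.64 and 1.73 in SCF libraries, lower in SCF without overlap (limma log2 change −0.23, SE 0.17, unadjusted p = 0.178, adjusted p = 0.791). The ranks by fold enrichment overlapped, at 11.3 and 17.7 in PBS and 13.3 and 17.8 in SCF libraries.

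Calls at other starts of GATA2 came from some libraries only. At the most upstream start a region (+0.09 kb, chr3:128211653-128212052) was called in PBS replicate 2 and SCF replicate 2, with 50 and 33 fragments. Near another start (+4.23 kb, chr3:128207714-128207972) a region was called in SCF replicate 1 with 33 fragments. All 3 peaks ranked near the bottom of their lists by fold enrichment, at 0.683, 1.12 and 0.442. Their −log10 q was 6.86, 5.90 and 4.86, so they were not at the limit of the lists. The local background was 3.84 times the median of regions called in all 4 libraries at +0.09 kb and 3.88 times at +4.23 kb. The pileups were about the library median, with scaled values of 1.06, 1.00 and 1.00. A start without a call was not detectable at the threshold, and this does not show that the DNA was closed.

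The promoters of the 2 genes changed order with the measure. The scaled pileup of the GATA2 promoter was 1.72 and 1.39 times that of the GATA1 promoter in PBS and 1.54 and 1.39 times in SCF libraries, higher in 4 of 4 libraries (mean 1.51 ± 0.156, SD, n = 4). By fold enrichment the order was the reverse, with a mean rank of 15.0 for GATA2 and 48.4 for GATA1. The local background of the GATA2 promoter was 4.52 times the median of regions called in all 4 libraries, higher than at 97.2% of them, and that of the GATA1 promoter was 1.70 times the median. Among promoters of protein-coding genes called in all 4 libraries, the scaled pileup of GATA2 stood at the 51.9th percentile and that of GATA1 at the 31.1st.

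The same offset ran across the GATA2 gene and its upstream flank. The pileup rank exceeded the fold enrichment rank by 65.3 points at +5.40 kb, by 56.2 at +9.94 kb, by 52.3 at −2.48 kb and by 42.1 at −4.73 kb. A difference of at least 50 points occurred in 2.30% of the 22355 regions. Fold enrichment is divided by the local background, which by construction lowers the rank of sites with a high background. What raised the background at these sites was not tested. At −91.47 kb and −115.18 kb, where the background was 0.510 and 0.739 times the median, the difference was −8.41 and 0.376 points. The offset was not particular to GATA2. It was 33.5 points at GATA1 −3.46 kb and 20.8 at the GATA1 promoter, and the pileup rank was the higher at 6 of 9 GATA1 regions. At the KLF1 promoter the pileup ranks were 91.8 to 95.7 and the fold enrichment ranks 6.41 to 22.8.

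**Figure D2:**
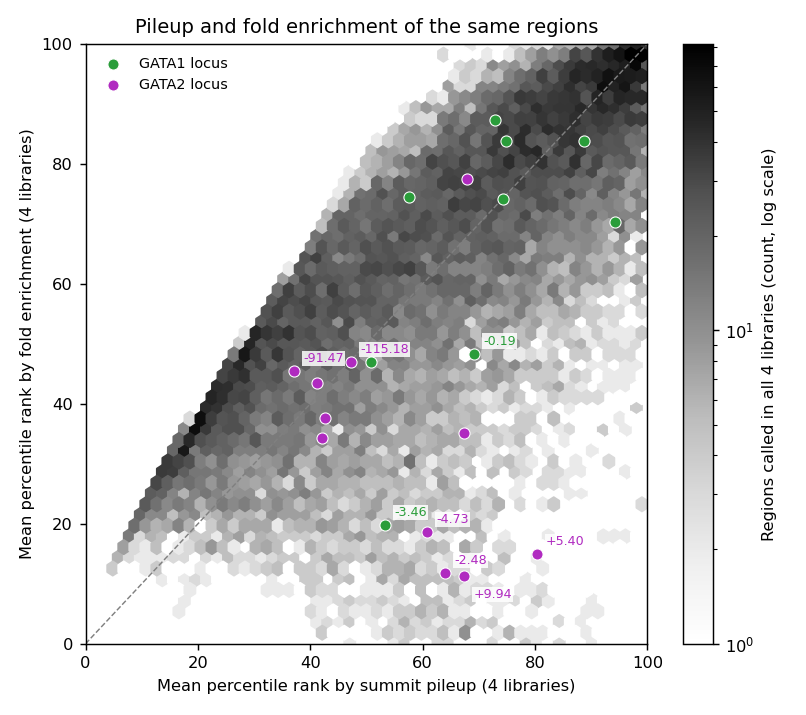
Mean percentile rank by fold enrichment (y axis) against mean percentile rank by summit pileup (x axis) over 4 libraries. Grey shading counts the 22355 regions on a log scale, green points are GATA1 regions, purple points GATA2 regions, and labels give the position in kb of promoter, intronic and upstream regions. The 4 GATA2 regions from −4.73 to +9.94 kb lie far below the dashed line of equal ranks.

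The intronic site of GATA2 was at +9.94 kb (chr3:128201862-128202359), the only region with a summit in an intron of either gene. It had 43 and 61 fragments in PBS and 28 and 41 in SCF libraries. The scaled pileups were 1.23 and 1.30 in PBS and 0.848 and 1.24 in SCF libraries, and SCF replicate 2 overlapped the PBS values. The ranks were 10.9 and 17.7 in PBS and 2.68 and 13.6 in SCF libraries, also overlapping (limma log2 change −0.30, SE 0.22, adjusted p = 0.803). The log2 change was −0.02 without SCF replicate 1 and −0.57 without SCF replicate 2. This was the only one of the 28 regions with the composite of E-box and GATA sequence, which 2.09% of all regions hold. In the run printed above the composite spans bases 31 to 50, 61 bp from the summit at its center, and ends in a GATA word.

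Upstream of GATA2, both near sites lay in introns of the antisense gene GATA2-AS1. The site at −2.48 kb (chr3:128214156-128214827) had 33 and 68 fragments in PBS and 32 and 27 in SCF libraries. Its ranks were 6.74 and 29.1 in PBS and 7.15 and 4.08 in SCF libraries, so that PBS replicate 2 alone stood high. Its scaled pileups overlapped as well, at 0.943 and 1.45 in PBS and 0.970 and 0.818 in SCF libraries (limma log2 change −0.39, SE 0.24, adjusted p = 0.745). Without PBS replicate 2 the log2 change was −0.08. The window holds 2 GATA words on opposite strands, 3 bases apart. Of regions more than 1 kb from a start, 11.01% hold at least 2.

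The site at −4.73 kb (chr3:128216365-128217020) was the only rank loss at either locus, a class that took 3.04% of the 22355 regions. The fragment counts behind it were 38 and 52 in PBS and 26 and 24 in SCF libraries. Scaled, these were 1.09 and 1.11 in PBS and 0.788 and 0.727 in SCF libraries, a ratio of 0.691. The local background was 5.77 and 9.99 fragments in PBS and 5.84 and 5.98 in SCF libraries. The limma log2 change was −0.53 (SE 0.23, unadjusted p = 0.0300, adjusted p = 0.663), and it did not pass the test over all regions. In the 9 alternative settings it was between −0.59 and −0.38. As at GATA1 +7.95 kb, several of these settings could not change its value or turn its sign. Its window had a GC content of 74.1%, and none of the 8 words was found in it.

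The distal upstream sites of GATA2 were weak. At −91.47 kb (chr3:128303185-128303806) there were 15 and 19 fragments in PBS and 14 and 19 in SCF libraries, and the ranks of 48.6 and 39.4 in PBS and 34.7 and 59.3 in SCF libraries overlapped. At −115.18 kb (chr3:128327023-128327622) there were 26 and 27 fragments in PBS and 25 and 13 in SCF libraries. Its ranks were 56.8 and 56.0 in PBS and 46.6 and 28.3 in SCF libraries, lower in SCF by a gap of 9.30 points. The scaled pileups at −115.18 kb, 0.743 and 0.574 in PBS and 0.758 and 0.394 in SCF libraries, overlapped (limma log2 change −0.26, SE 0.32, adjusted p = 0.894). Its log2 change was −0.73 without SCF replicate 1 and turned to 0.21 without SCF replicate 2, and the rank difference of −18.9 points became −28.0 and −9.73. An EGR word lies 13 bp from its summit.

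The remaining 3 upstream sites were not called in every library. The site at −12.10 kb (chr3:128223774-128224283) was called in PBS replicate 2 and both SCF libraries, with 9, 11 and 11 fragments. The site at −54.34 kb (chr3:128266176-128266672) was called in PBS replicate 1 and both SCF libraries, with 11, 12 and 13 fragments. The site at −80.67 kb (chr3:128292660-128292914), in an exon of the noncoding gene LINC01565, was called in PBS replicate 2 alone, with 10 fragments. Within 100 bp of the summit these were the only 3 of the 28 regions with an AP-1 word, against 8.43% of all regions and 11.5% of those more than 1 kb from a start. Within 250 bp there were 6 of 28, or 21.4%, against 17.9% of all regions. AP-1 proteins of the FOS and JUN families and the zinc finger factor EGR1 are immediate early factors. The site at −54.34 kb holds an EGR word as well, and that word was found in 2 of the 28 regions and in 3.80% of all regions. At 9 to 13 fragments these sites lay close to the lowest pileups in the lists, 5 to 7 fragments. A library without a call therefore shows only that no peak passed the threshold there. At −54.34 kb the library without a call was PBS replicate 2, the deepest.

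Downstream of GATA2 there were 7 regions and the promoter of DNAJB8, a chaperone gene, which was called in SCF replicate 2 alone. The strongest by rank was at +66.58 kb, with 76.7 and 75.0 in PBS and 84.3 and 73.7 in SCF libraries. An intronic region of EEFSEC, a translation factor for selenoproteins, at +98.89 kb (chr3:128112558-128113547) had 13 and 20 fragments in PBS and 28 and 19 in SCF libraries. Its ranks were 19.3 and 36.7 in PBS and 52.1 and 42.2 in SCF libraries, higher in SCF by a gap of 5.46 points, and its limma log2 change was 0.81 (SE 0.30, unadjusted p = 0.0132, adjusted p = 0.633). The log2 change was 0.53 without SCF replicate 1 and 1.09 without SCF replicate 2, and the rank difference of 19.2 points was 10.4 without PBS replicate 1. At +77.60 kb the SCF ranks of 44.9 and 36.0 were also above the PBS ranks of 34.7 and 24.7. Of the 11 GATA2 regions called in all 4 libraries, 2 were higher in SCF and 2 lower in SCF by rank without overlap, where 16.0% and 19.2% of all such regions were. By scaled pileup 1 was higher and 2 were lower, where 18.6% and 18.9% of all such regions were.

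Over the 4 regions from −4.73 to +9.94 kb the mean scaled pileup was 1.29 and 1.47 in PBS and 1.06 and 1.13 in SCF libraries, and each of the 4 had a lower mean in SCF. Over the 5 downstream regions called in all 4 libraries it was 0.749 and 0.647 in PBS and 0.945 and 0.752 in SCF libraries, and each of the 5 had a higher mean in SCF. Of all 22355 regions, 50.04% had a lower and 49.96% a higher mean in SCF. By rank the directions were mixed, since at +5.40 kb SCF was 1.05 points higher and at +36.71 kb the SCF minus PBS difference was −3.59 points, and at +77.60 kb the limma log2 change of 0.24 became −0.05 without SCF replicate 1. These sets were delimited after the values were seen, so no test was made of them.

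**Figure D3:**
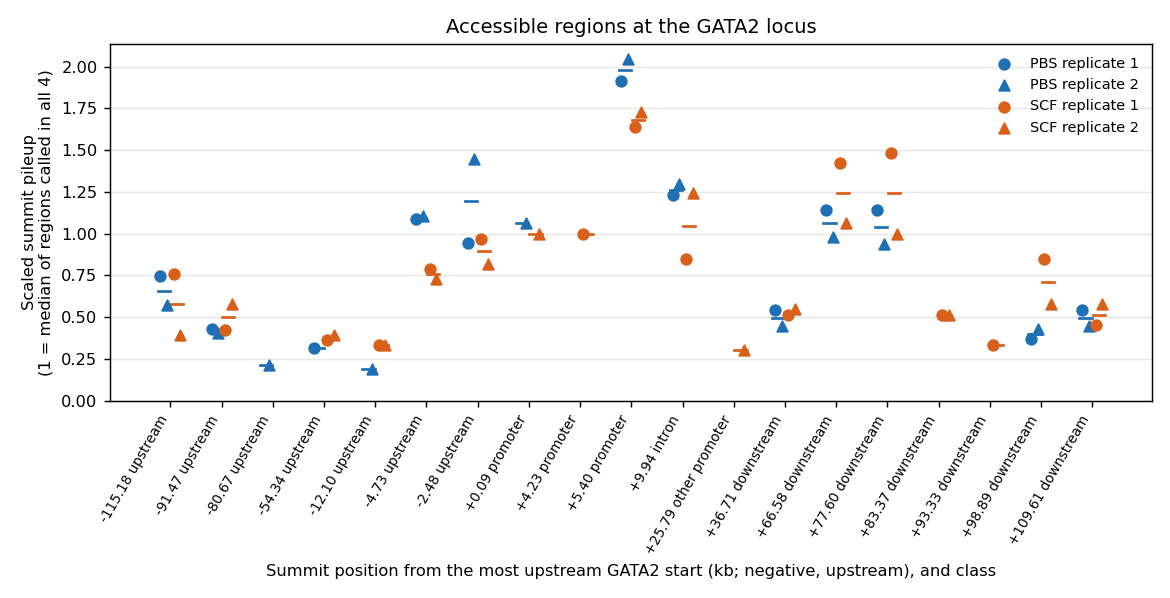
Scaled summit pileup (y axis, 1 is the median of regions called in all 4 libraries) of the 19 regions at the GATA2 locus, ordered by position in kb from the most upstream GATA2 start (x axis), with 1 point for each library that called the region and a bar at the mean of each treatment. The highest of the regions called in all 4 libraries, at +5.40 kb, has PBS at 1.91 and 2.04 and SCF at 1.64 and 1.73.

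**Figure D4:**
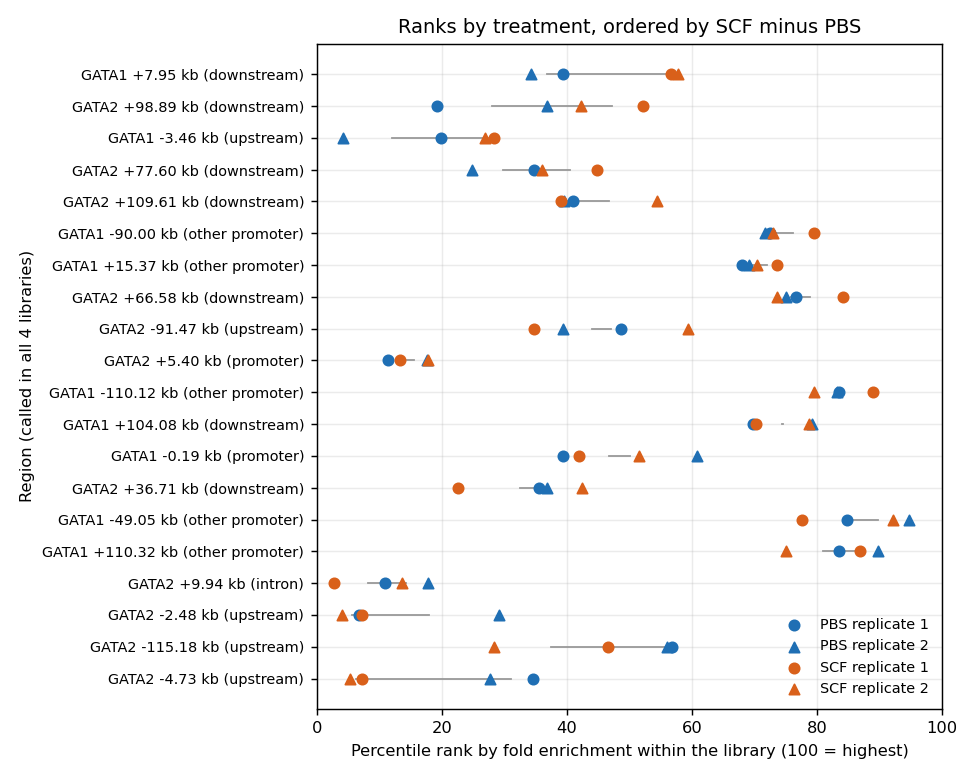
Percentile rank by fold enrichment within each library (x axis) for the 20 regions called in all 4 libraries (y axis), ordered by the difference of means, SCF minus PBS, with a grey line joining the treatment means. The GATA1 region at +7.95 kb is at the top with a gap of 17.4 points and the GATA2 region at −4.73 kb at the bottom with a gap of 20.4 points.

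Across the genome, no region passed an adjusted p of 0.05 in the limma fit over the 22355 regions called in all 4 libraries (0.0% called, with 1597 at an unadjusted p under 0.05), and so none of the 20 regions at the 2 loci did. At an unadjusted p under 0.05 there were 3 of 20, namely GATA1 +7.95 kb and GATA2 +98.89 kb higher in SCF and GATA2 −4.73 kb lower. The shares among all regions were 3.83% higher and 3.31% lower, 7.14% in either direction. In simulated pileups of 22355 regions, 67, 67 and 66 regions with a mean pileup over 20 were raised 1.5-fold, 2-fold and 4-fold. The same fit recovered 14.9%, 55.2% and 100% of them. Recovery depends on how many regions change and on the spread, which was taken from the PBS libraries, and no decreases were simulated. In that setting 1.5-fold increases were mostly missed. The lack of a call at 0.69 or −0.53 on the log2 scale therefore does not show that accessibility was unchanged.

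**Figure D5:**
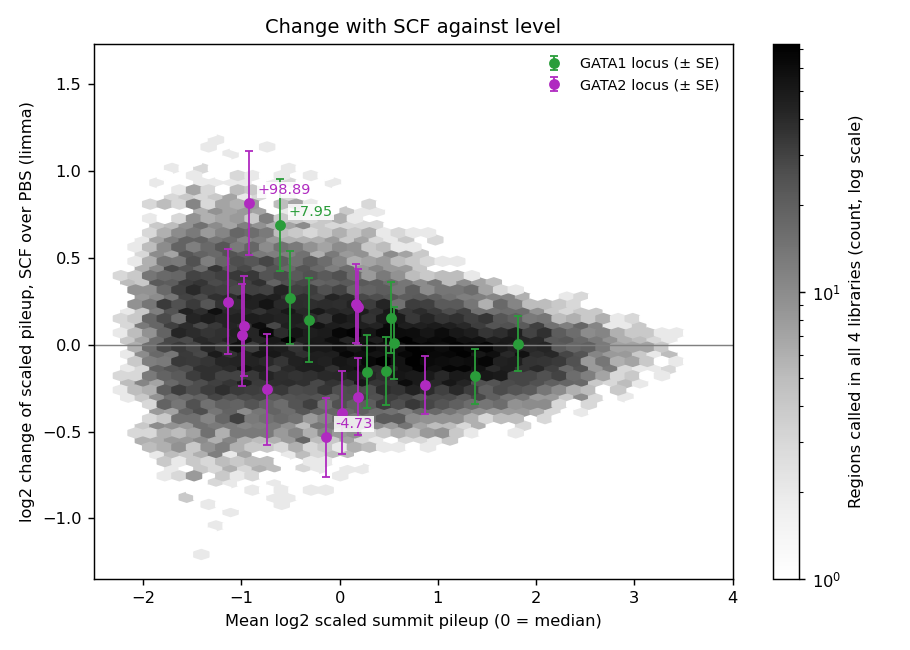
Fitted log2 change of scaled pileup, SCF over PBS (y axis), against the mean log2 scaled pileup (x axis) for the regions called in all 4 libraries, shaded by count on a log scale. Green and purple points are the 9 GATA1 and 11 GATA2 regions with their SE, and labels mark the 3 with an unadjusted p under 0.05, at 0.69, 0.81 and −0.53.

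Promoters of the GATA family and its partner factors were examined alongside. Of 20 genes, 18 had a promoter region called in all 4 libraries, and FLI1, a megakaryocytic ETS factor, was not called. GATA4 was called in the PBS libraries alone, with 8 and 10 fragments, where the lowest pileups in those lists were 6 and 7. Of all regions, 2.37% had that pattern. None of the 18 was a rank gain or loss, and the median difference in rank, SCF minus PBS, was −2.03 points against −0.536 over all regions. Scaled pileup at KLF1, an erythroid activator, was 3.57 and 3.94 in PBS and 3.24 and 3.18 in SCF libraries. At ZFPM1, which encodes the GATA1 cofactor FOG1, it was 6.11 and 6.34 in PBS and 6.52 and 5.79 in SCF libraries. SPI1, the myeloid factor PU.1 and an antagonist of GATA1, was the only one of the 18 with an unadjusted limma p under 0.05, as were 7.14% of all regions. Its scaled pileup was 0.686 and 0.809 in PBS and 1.45 and 1.03 in SCF libraries, higher in SCF without overlap (limma log2 change 0.72, SE 0.24, unadjusted p = 0.00744, adjusted p = 0.608). GATA3 separated likewise, at 0.857 and 0.745 in PBS and 1.00 and 1.18 in SCF libraries (limma log2 change 0.44, SE 0.23, adjusted p = 0.709). The promoters of GATA2, KLF1, LYL1 and ETV6 were lower in SCF without overlap. Among all regions called in every library, 18.6% were higher and 18.9% lower in this way. By scaled pileup, the promoters of GATA1 and GATA2 stood lower than those of KLF1 and ZFPM1 in 4 of 4 libraries.

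GATA words were present at a minority of the regions. Within 100 bp of the summit, 3 of 9 GATA1 regions and 3 of 19 GATA2 regions held one, together 6 of 28 (21.4%), against 25.4% of all regions. Among regions more than 1 kb from any start the shares were 4 of 18 and 36.4%. With 250 bp on each side they were 8 of 28 at the loci and 41.4% overall. The RUNX word TGTGGT was in 3 of 28 regions (12.4% of all regions), and the KLF word CCACACCC was in none (3.12% of all regions). The ETS word CCGGAAG and the CTCF consensus were also in none (4.43% and 0.158% of all regions). Words were read on both strands, and a word is a match of letters, not a bound site.

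The promoters most like that of GATA1 in rank over the 4 libraries, of 12104 protein-coding genes, were those of LZTS1, GPC3, MGAT5, MB21D2 and ITGA6, with root mean square differences of 2.53 to 2.99 points. Those most like GATA2 were FES, LRTM2, SOWAHA, ATP8B2 and KCNE3, at 2.21 to 3.58 points. At the edge of the 120 kb rule, the farthest regions included were 110.273 kb (GATA1) and 115.176 kb (GATA2) from a start, and the nearest left out were 124.131 and 124.712 kb away, with ranks of 55.6 to 91.2 and 80.1 to 87.2.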

How the data were processed

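ATAC-seq peak lists of the 4 sgControl libraries (2 PBS, 2 SCF) were used. The authors processed paired-end reads with the ENCODE ATAC-seq pipeline and, per the labels, with Bowtie2 and SAMtools. Peaks were called in each library, and the caller's settings are not given in the sources used here. The methods and labels name hg38, whereas the first line of the deposited lists and the series description name hg19. With the latter, 40.6% of regions had a summit within 1 kb of a GRCh37 start, and hg19 was used. Deposited values were a fold enrichment (ratio of pileup to local background), −log10 p and −log10 q, and a whole-number score that was not used. The peak names inside the lists carry other replicate numbers than the labels, and labels were followed.

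The members, word and gene lists were chosen with earlier results of these data known. A single marker gene is not reported here. Whole-number pileups were recovered from fold enrichment and −log10 p under a Poisson model (relative tolerance 0.0001). Regions on 24 chromosomes were annotated with GENCODE release 44 on GRCh37, and a promoter was within 1 kb of a start. Each region took the values of its best-ranked peak in a library. limma 3.58.1 (R 4.3.3, trend) was fitted to log2 scaled pileup with Benjamini-Hochberg adjustment, after tests on simulated data, in place of the study's MAnorm, which needs reads. Single values were compared by exact permutation over libraries. SciPy 1.17.1 supplied the functions for the Poisson model. Ranks, pileups and coordinates are given for every promoter, intronic and upstream region, while downstream regions and other promoters are given by range, with the highest and any gain or loss named, and +98.89, +77.60 and +83.37 kb were named after their values were seen. Alternatives covered ranking, scaling, filters, distances, word windows, leaving out each library and the replicate block. Counting error alone was not separated from differences between cultures.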

Additional observations from a re-analysis of the deposited data

How the results depend on the processing

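Of 467 values recomputed under alternative settings, 406 were labelled the same, 60 moved and 1 reversed. Peak differences and rank differences of single regions were the same when they moved by less than the replicate spread. Counts and shares were the same within 1.5 times. Log2 changes and locus mean ranks were the same when the sign held, so for them the label does not show a stable size. Values that a setting leaves unchanged by construction, such as differences under the replicate block, were also counted as the same. The GATA1 −3.46 kb log2 change was labelled the same at 0.27 in the main fit and 0.002 without PBS replicate 2. Of all 467, 32 had the opposite sign of the value reported, 18 of them rank differences and 14 log2 changes. The reversed value was the mean rank of the GATA2 regions, SCF minus PBS, which was −2.02 with the lists as deposited and 0.175 when all lists were shortened to the same length. The difference in GATA2 peaks per library, 3.0, became 1.0 with a −log10 q of at least 5 and 1.5 within 50 kb. Leaving out 1 library at a time gave 2.5 to 3.5 for that difference, −1.0 to 0.0 for GATA1 peaks, 1.95 to 4.86 points for the GATA1 mean rank and −3.05 to −0.925 for the GATA2 mean rank. The count of limma calls over all regions, 0, became 56 when pileups were scaled by the lowest background, all higher in SCF with the median of all regions shifted by 0.15 on the log2 scale, and 4 with cyclic loess. It was 0 without either PBS library, 110 without SCF replicate 1 and 38 without SCF replicate 2, and the lone library was then assumed to vary like the other group. No region at either locus passed in any of these settings, and the lowest adjusted p was 0.176.

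Replicate numbers are shared by the treatments in the labels. Samples with the same number did not deviate together (correlation of deviations 0.00278 over regions called in all 4 libraries), so the numbers were not taken to pair them. With the replicate block, limma called 11 regions across the genome and none at either locus. The mean rank differences, 3.41 points at GATA1 and −2.02 at GATA2, equal those without it by construction, since the design is balanced.

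Weak sites were called unevenly: outside the gene, regions called in fewer than 4 libraries had 9 to 17 fragments, and a missing peak there was not read as closed DNA. The sites at −54.34 and +83.37 kb had no call in PBS replicate 2, the deepest library. The part of depth in the missing calls was not tested. The merged regions at +36.71 and +77.60 kb had summits more than 250 bp from their mean in a library, so the setting that requires nearby summits gave no value there.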
